A study of Mus musculus with 12 samples.

Results

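The genes described here encode the proteins of the cytosolic ribosome in mouse skeletal muscle fibers, including *Rpl3l*, the muscle form of *Rpl3*. They were chosen by symbol alone, as genes named *Rpl* or *Rps* with a number and at most 1 of the letters a, l, x or y, plus *Rplp0*, *Rplp1*, *Rplp2* and *Rpsa*. This gave 83 of the 55367 gene symbols in the files, 51 of the large subunit and 32 of the small subunit. RNA-seq was performed on fibers isolated from the extensor digitorum longus (EDL), a fast muscle of the lower leg, of male mice. The 12 samples were 4 of fibers from young mice of 3–4 months and, from aged mice of 26–28 months, 4 of Fluo-4 normal and 4 of Fluo-4 abnormal fibers. Fluo-4 is a fluorescent calcium dye, and the aged fibers were sorted under a microscope by whether it stained them normally or abnormally. The labels name no transgene or treatment for any sample, and the sources used here do not say how many fibers or mice went into a sample.

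A ribosome is built from ribosomal RNA and one copy each of most of these proteins, and the small subunit reads the mRNA while the large subunit joins amino acids. RPL3 lies close to the site where the peptide bond is made. In adult skeletal and cardiac muscle, RPL3L takes the place of RPL3 in many ribosomes, whereas proliferating myoblasts and most other cells use RPL3. Most ribosomal protein mRNAs begin with a cytosine followed by a run of pyrimidines, the 5′ TOP motif, through which mTORC1 signaling controls their translation.

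*Rpl3* (ENSMUSG00000060036.16) lies at chr15:79961825-79976069 on the minus strand of GRCm39, and *Rpl3l* (ENSMUSG00000002500.17) at chr17:24946751-24955119 on the plus strand. Their coding sequences of 1209 and 1221 bases were identical at 74.3% of the aligned bases, and the longest identical run was 22 bases. The most and least alike of the compared stretches of 90 bases are shown because they bear on whether reads of the 2 genes can be told apart. Only stretches aligned without gaps, starting at a codon of *Rpl3* and within a single coding exon of each gene were compared. Capitals mark the bases that differ. The most alike stretch, with 82.2% identity, lies in coding exon 6 of both genes, at chr15:79963960-79964049 and chr17:24952560-24952649.
Rpl3: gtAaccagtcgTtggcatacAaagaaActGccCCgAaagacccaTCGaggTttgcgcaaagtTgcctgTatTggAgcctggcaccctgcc
Rpl3l: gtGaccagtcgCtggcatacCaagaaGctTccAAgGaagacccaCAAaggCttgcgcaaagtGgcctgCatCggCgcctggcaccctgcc
The least alike stretch, with 62.2% identity, lies in coding exon 7, at chr15:79962914-79963003 and chr17:24952897-24952986.
Rpl3: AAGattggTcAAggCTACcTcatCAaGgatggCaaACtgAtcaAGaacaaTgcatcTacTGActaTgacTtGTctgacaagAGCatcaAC
Rpl3l: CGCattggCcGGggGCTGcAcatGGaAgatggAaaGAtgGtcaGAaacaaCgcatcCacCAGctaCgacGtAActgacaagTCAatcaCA
Even in the most alike stretch 16 of 90 bases differed, so the pair did not count as near-identical copies.

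Other members may share reads with copies. Of the 83 members, 75 had at least 1 near-identical copy elsewhere in the annotated transcripts (at least 95% identity over at least 100 bases and 50% of the coding sequence), mostly processed pseudogenes. In 45 members the copies held over 10% of the joint TPM (a transcript level corrected for transcript length and sequencing depth, scaled to the same total in each sample). *Rpl12* averaged 20.6 TPM while its copies held 78.4 TPM, so its own level may depend on how reads were divided. Among the 8 members without a copy by these limits were *Rpl3l*, *Rpl8*, *Rpl39* and *Rps27l*, although *Rpl39* had 1 named pseudogene at 12.9 TPM.

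RefSeq promoter windows were at hand for 61 members, with 73 annotated starts on GRCm38.p6. *Rpl3* was not among them. A C followed by at least 5 C or T, searched on the transcribed strand from 20 bases before to 30 bases after a start, was present at 68.5% of the members' starts and at 34.3% of all 32851 starts. The motif CCGGAAG, the core of sites for ETS factors, was found on either strand in 35.6% of the members' windows and 8.86% of all windows. The E-box CAGCTG, a letter pattern bound by myogenic factors, was found in 5.48% of the members' windows against 16.3% of all. A MEF2 pattern was found in 1.37%, against 3.19% of all, and the TATA pattern TATAAA in 9.59% against 13.6%. The starts of some of the members that carry the main results are shown, with the pyrimidine run in capitals. Each stretch runs from 10 bases before to 20 bases from the start.
Rpl12, chr2:32961702-32961731, plus strand: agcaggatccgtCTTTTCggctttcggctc
Rpl13a, chr7:45128726-45128755, minus strand: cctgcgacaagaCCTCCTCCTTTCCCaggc
Rpl15, chr14:18270967-18270996, minus strand: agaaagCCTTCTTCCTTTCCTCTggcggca
Rpl7a, chr2:26910797-26910826, plus strand: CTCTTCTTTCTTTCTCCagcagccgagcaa
Rpl4, chr9:64173377-64173406, plus strand: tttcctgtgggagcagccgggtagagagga
Rpl3l, first start, chr17:24727816-24727845, plus strand: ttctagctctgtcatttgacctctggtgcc
Neither *Rpl4* nor *Rpl3l* held such a run in these 30 bases. Of the called members not shown, *Rpsa*, *Rpl10*, *Rpl13*, *Rpl23*, *Rps25* and *Rps4x* held none either. *Rps12* and a start each of *Rpl19*, *Rps19* and *Rps21* did hold a run. *Rpl3l* was among the 4 members with CAGCTG, together with *Rpl6*, *Rpl10l* and *Rpl35*, and the only 1 with the MEF2 pattern. The bases upstream of its 2 annotated starts follow, with the CAGCTG of the first and the MEF2 match of the second in capitals.
Rpl3l, first start, chr17:24727706-24727825: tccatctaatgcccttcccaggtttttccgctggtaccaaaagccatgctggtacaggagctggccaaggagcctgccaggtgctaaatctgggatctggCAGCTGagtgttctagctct
Rpl3l, second start, chr17:24732535-24732684: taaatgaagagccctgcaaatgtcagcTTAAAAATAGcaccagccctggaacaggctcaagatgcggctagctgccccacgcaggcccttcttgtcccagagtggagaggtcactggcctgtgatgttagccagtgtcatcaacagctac
These matches describe the letters of the windows.

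Each sample had 16841 to 17936 gene symbols above 0, and its values summed to 1000000 TPM. How many reads a value rests on is not known from TPM, so counting error was not estimated. The 10 myofiber markers, such as *Acta1* and *Ckm*, summed to between 146788 and 200220 TPM in every sample, whereas *Adipoq* and *Plin1* of adipocytes were listed at 0 in all 12. Mitochondrially-encoded genes held 73533 to 80130 TPM in young, 87518 to 108954 TPM in Fluo-4 normal and 47454 to 69179 TPM in Fluo-4 abnormal samples. Since TPM values share a fixed total, this difference moves the TPM of the other genes.

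The pair *Rpl3* and *Rpl3l* moved in opposite directions between young and Fluo-4 abnormal fibers. *Rpl3l* fell and *Rpl3* rose, although *Rpl3l* stayed the far more abundant of the pair in every sample. *Rpl3l* was at 372, 379, 369 and 369 TPM in the young samples, at 321, 334, 325 and 344 TPM in the Fluo-4 normal samples and at 302, 307, 315 and 320 TPM in the Fluo-4 abnormal samples. All young samples lay above all aged samples, and each abnormal sample lay below each normal sample, with less than 1 TPM between the highest abnormal and the lowest normal sample. *Rpl3* was at 5.16, 7.05, 9.05 and 4.16 TPM in young, at 9.02, 13.2, 10.9 and 13.2 TPM in normal and at 15.0, 12.3, 9.66 and 20.3 TPM in abnormal samples. Every abnormal sample exceeded every young sample, while the normal samples overlapped both other groups.

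**Figure D1:**
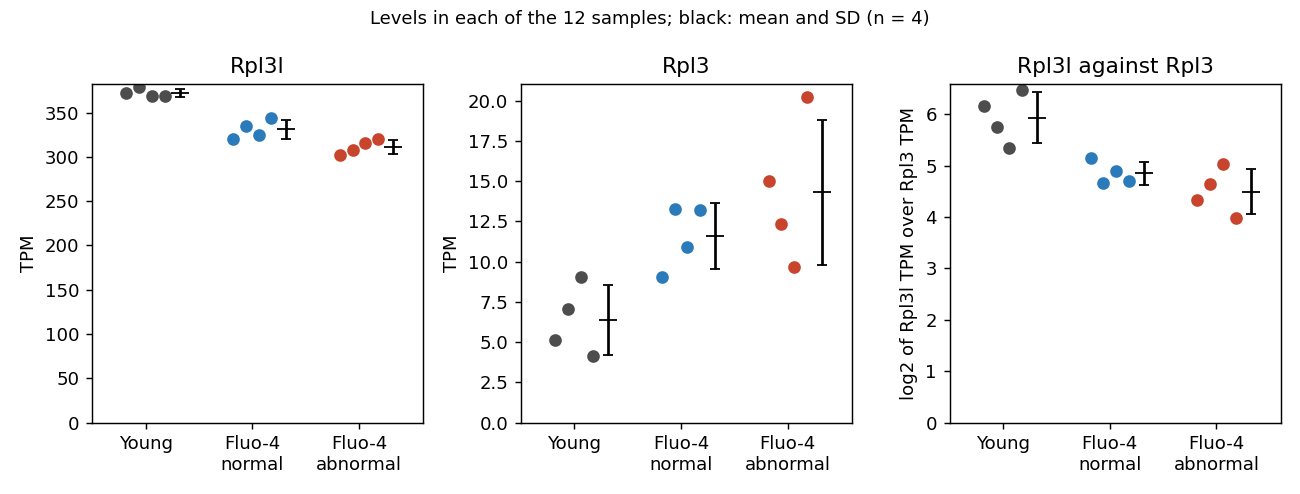
Each point is 1 sample; the left and middle panels give the TPM of Rpl3l and Rpl3 on axes that start at 0, and the right panel the log2 of their ratio, for young, Fluo-4 normal and Fluo-4 abnormal fibers, with the mean and SD of each group in black (n = 4). Rpl3l steps down from a mean of 372 to 331 and 311 TPM, while Rpl3 rises from 6.36 to 11.6 and 14.3 TPM.

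Differences were tested with limma on log2(TPM + 1) in a model of the 3 groups and are given with their standard errors (SE). Adjusted p-values are Benjamini-Hochberg values over all 14427 genes tested. *Rpl3l* fell by 0.26 ± 0.05 on the log2 scale from young to abnormal fibers (adjusted p = 0.0070), and *Rpl3* rose by 1.06 ± 0.23 (adjusted p = 0.014), 2.08-fold on the log2(TPM + 1) scale. From young to normal fibers the differences were −0.17 ± 0.05 for *Rpl3l* (adjusted p = 0.13) and 0.81 ± 0.23 for *Rpl3* (adjusted p = 0.12). Between abnormal and normal fibers they were −0.09 ± 0.05 (adjusted p = 0.29) and 0.25 ± 0.23 (adjusted p = 0.53). The call of *Rpl3l* against young held in all 26 alternatives tried, with adjusted p-values from 0.00092 to 0.023. The call of *Rpl3* held in 24 and was lost without young replicate 4 (adjusted p = 0.055) and without abnormal replicate 4 (adjusted p = 0.052). Between abnormal and normal fibers *Rpl3l* passed the test with TMM-type factors, a scaling by the bulk of genes (−0.32 ± 0.08, adjusted p = 0.029), with a trend on GC content and transcript length removed (−0.20 ± 0.06, adjusted p = 0.044), and with that correction and the replicate block together (−0.20 ± 0.05, adjusted p = 0.018). In all other alternatives, the replicate block alone among them, *Rpl3l* did not pass in this comparison.

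A ratio of 2 genes in the same sample does not depend on the scaling of the sample. *Rpl3* made up 1.68% ± 0.56 (SD, n = 4) of the summed TPM of the pair in young fibers, 3.37% ± 0.49 in normal and 4.38% ± 1.27 in abnormal fibers. The log2 ratio of *Rpl3l* to *Rpl3* averaged 5.93 in young, 4.85 in normal and 4.50 in abnormal fibers. It was lower by 1.44 ± 0.33 (SE) in abnormal than in young fibers and lower by 1.08 ± 0.27 in normal than in young fibers, with no overlap in either comparison. A two-sided exact permutation test over the 70 arrangements of 4 against 4 samples gave p = 0.0286 for each, the smallest it can give, and 0.0429 after adjustment over the 3 comparisons. Between abnormal and normal fibers, without pairing the replicate numbers, the difference was −0.36 ± 0.25 with exact permutation p = 0.20, also 0.20 after adjustment. The samples overlapped there, since abnormal replicate 3, at 5.03, lay above 3 of the 4 normal samples.

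In bulk samples, fewer cells of a type and less RNA per cell cannot be told apart, and some markers of other cell types also differed between the groups. The 8 immune markers summed to 1.87 to 3.02 TPM in young, 5.81 to 16.2 in normal and 9.53 to 16.3 in abnormal samples. *Ptprc* and *Adgre1* were at 0 in all young samples, *Adgre1* also in all normal and *Cd79a* in all abnormal samples. *Lyz2* was called higher in both aged groups and *Cd3e* in abnormal fibers. The 7 satellite cell markers summed to 58.0 to 68.9 TPM in young, 50.5 to 68.3 TPM in normal and 73.3 to 92.6 TPM in abnormal samples, with *Itga7*, which fibers also express, as the 1 marker called. The sums of the fibroblast markers overlapped, at 20.2 to 38.9, 26.1 to 85.2 and 14.2 to 66.2 TPM, as did those of the endothelial markers, at 6.09 to 14.5, 6.60 to 31.8 and 4.05 to 13.1 TPM. Erythroid markers reached 84.4 TPM in young, 322 TPM in normal and 162 TPM in abnormal samples. Adipocyte markers reached 28.6, 112 and 64.4 TPM, which came from *Fabp4* alone in young and abnormal and from *Fabp4* and *Cfd* in normal samples. Schwann cell markers reached 5.52, 16.1 and 14.1 TPM, and smooth muscle markers 67.4, 22.7 and 12.2 TPM. *Mbp* and *Sox10* of Schwann cells were called higher in abnormal than in young fibers. The part of these cells in the rise of *Rpl3* was not tested.

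The summed level of the members overlapped between the groups. It came to 18223 ± 782 TPM (SD, n = 4) in young, 18762 ± 1292 TPM in normal and 19834 ± 870 TPM in abnormal fibers, or 1.82%, 1.88% and 1.98% of all TPM. The young samples were at 18872, 17473, 17624 and 18925 TPM, the normal samples at 20601, 18022, 18697 and 17726 TPM and the abnormal samples at 19759, 18772, 19910 and 20897 TPM. The groups overlapped in each comparison, and normal replicate 1 lay above the other 3 normal samples. The small subunit genes held 0.695 ± 0.010 times the TPM of the large subunit genes in young, 0.690 ± 0.009 in normal and 0.693 ± 0.016 in abnormal fibers, which differed by less than the spread between samples.

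**Figure D2:**
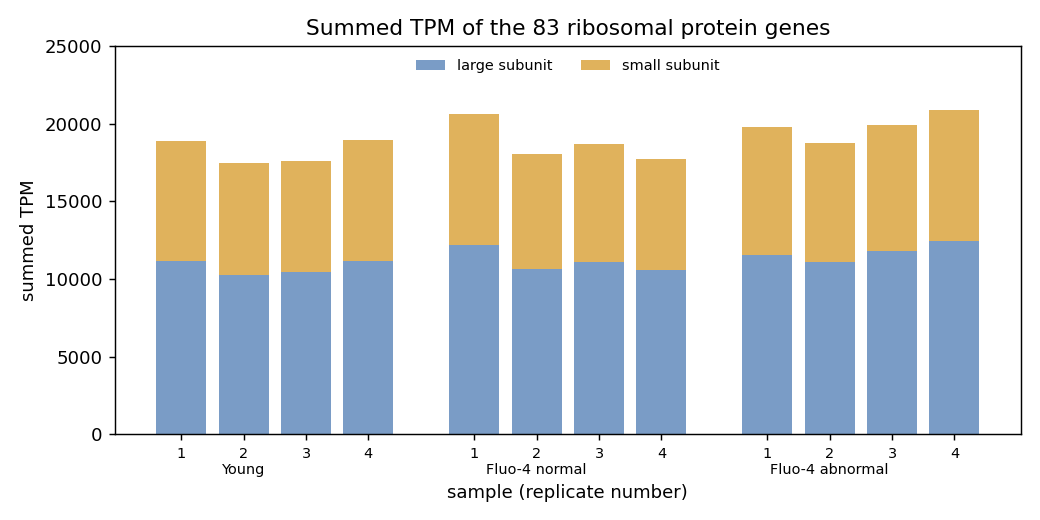
Each bar is 1 sample, and its height is the summed TPM of the 83 ribosomal protein genes, split into large subunit (lower part) and small subunit (upper part). The sums lie between 17473 and 20897 TPM, and the split between the subunits stays about the same in every sample.

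Levels differed widely among the members. Of the 83, 61 averaged at least 100 TPM, 18 between 1 and 100 TPM and 4 under 1 TPM. *Rpl36* (653 TPM) and *Rplp2* (615 TPM) were among the 3 members with the highest means. *Rpl3*, at 10.7 TPM, was the lowest of the members whose symbol does not end in l. *Rpl12*, at 20.6 TPM, and *Rpl5*, a protein that binds the 5S rRNA, at 21.1 TPM, came next and did not differ beyond their spread. Among the tested members of at least 1 TPM, *Rpl3* had the largest coefficient of variation in each group, 34.0% in young, 17.5% in normal and 31.6% in abnormal fibers. The median coefficient over these 78 members was 5.87%, 8.22% and 6.86%. *Rpl3l* had the smallest of them in young fibers, 1.25%.

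Most of the other members whose symbol ends in l were near 0. *Rps27l*, whose product resembles RPS27, was at 520.5 to 632 TPM, with means of 566 ± 30.3, 559 ± 42.9 and 599.9 ± 30.5 TPM (SD, n = 4) in young, normal and abnormal fibers and overlap in each comparison. *Rpl10l*, known from the testis, was listed at 0 in 11 samples and at 0.04 TPM in young replicate 3. *Rpl39l*, another testis paralog, was above 0 only in young replicates 2 and 3, at 0.38 and 0.11 TPM. *Rps4l* was between 0.36 and 1.68 TPM. The pseudogenes *Rpl32l* and *Rpl6l* stayed between 0 and 1.61 TPM and between 2.05 and 3.72 TPM, and their near-identical parents *Rpl32* and *Rpl6* were at 464 and 90.4 TPM, so their own reads are uncertain. These 2 and *Rpl10l* were not tested, which left 80 members, 48 large and 32 small.

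**Figure D3:**
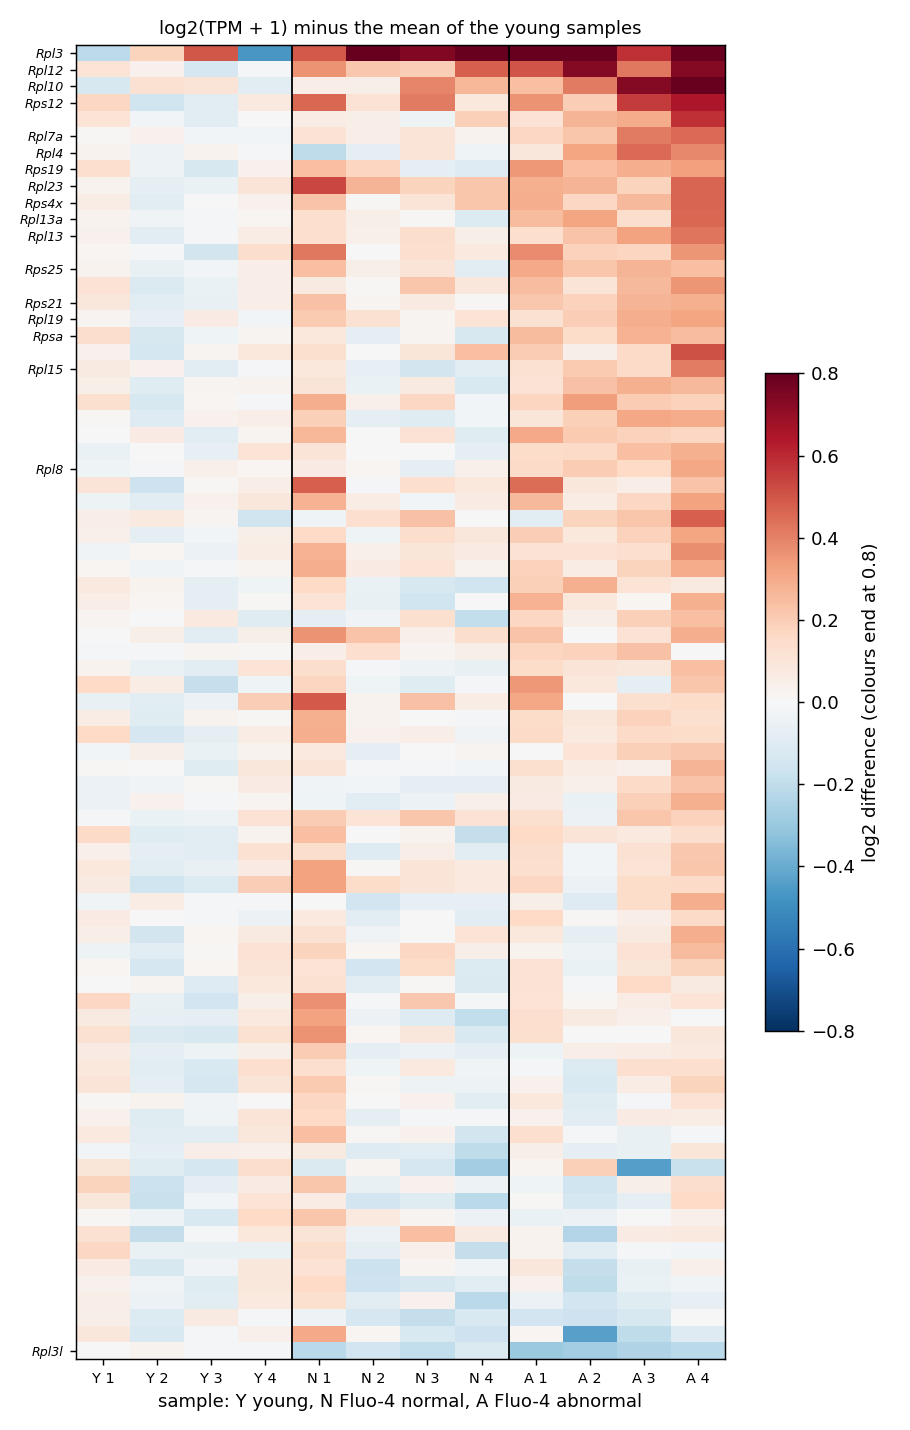
Each row is a ribosomal protein gene with a mean of at least 1 TPM and each column 1 sample; the color is log2(TPM + 1) minus the mean of the 4 young samples (red higher, blue lower), with the genes called in either comparison with abnormal fibers named and rows ordered by the difference between abnormal and young fibers. Rpl3 stands at the top and Rpl3l at the bottom, and Fluo-4 normal replicate 1 is redder than the other normal samples in many rows.

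Between Fluo-4 abnormal and normal fibers of the same age, 4 of the 80 members rose and none fell. These were *Rpl4*, *Rpl13a* and *Rpl15* of the large subunit and *Rpsa* of the small subunit. Among all 14427 genes 7.36% were called higher and 1.99% lower, 9.35% in all. Among the 870 genes with a mean of at least 100 TPM, to which 61 of the members belonged, 19.5% were called higher and 16.9% lower, and the 4 members called were among these 61. The median difference over the members was 0.104, and that over all genes was 0.102. At an unadjusted p under 0.05, 22 members were higher and none lower, against 21.3% and 4.34% of all genes. TMM-type factors moved the median of all genes to 0 and that of the members to −0.121, and no member was then called higher, against 2.13% of all genes. Relative to the median of all genes, 41 members were above and 39 below with the values as deposited, but 10 were above and 69 below with TMM-type factors. With a trend on GC content and transcript length removed it was the other way, with 63 above and 17 below, so the direction depended on the correction. At an unadjusted p under 0.05, TMM-type factors left 0 higher and 6 lower. The number called higher by limma was also 0 when only these 2 groups were fitted, with 19 higher and 0 lower at an unadjusted p under 0.05. It was 13 with the replicate number as a block, which called 13.0% of all genes higher. Leaving out normal replicate 1 gave 11, abnormal replicate 1 gave 8, normal replicates 2 and 4 and abnormal replicate 4 gave 1 each, abnormal replicate 2 gave 0, and young replicate 3, normal replicate 3 and abnormal replicate 3 gave 2 each.

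*Rpl4*, a protein of the large subunit that lines the peptide exit tunnel, was at 254, 277, 314 and 286 TPM in normal and at 311, 365, 400.1 and 383 TPM in abnormal samples. Only abnormal replicate 1 lay within the normal range, and the difference was 0.36 ± 0.08 (adjusted p = 0.016). *Rpl13a*, which also takes part in silencing of inflammatory mRNAs outside the ribosome, was at 193, 181, 177 and 163 TPM in normal and 209, 219, 194 and 242 TPM in abnormal samples, without overlap (0.27 ± 0.07, adjusted p = 0.034). *Rpl15* was at 156, 141, 133 and 139 TPM in normal and 160.5, 171, 164 and 197 TPM in abnormal samples (0.28 ± 0.08, adjusted p = 0.035). Its copies held 44.8% of the joint TPM and it overlaps *Nkiras1* on the other strand. The call of *Rpl15* was lost with the named pseudogenes added but held with its near-identical pseudogene copies added. *Rpsa*, which serves both in the small subunit and as a laminin receptor, was at 120, 107, 114 and 103 TPM in normal and 134, 125, 137 and 134 TPM in abnormal samples (0.26 ± 0.07, adjusted p = 0.038). The 4 calls were lost with TMM-type factors and when only the 2 groups were fitted.

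Other members came close to the threshold, among them *Rpl8* (0.19 ± 0.06, adjusted p = 0.051), *Rpl7a* (0.24 ± 0.07, adjusted p = 0.057), *Rps19* (0.24 ± 0.08, adjusted p = 0.086) and *Rps23* (0.22 ± 0.08, adjusted p = 0.085). *Rpl8* has no near-identical copy. With the replicate block, *Rpl7a*, *Rpl8*, *Rpl10*, *Rpl12*, *Rpl30* and *Rps25* were among the members called in addition to the 4. Groups did not overlap in 8 members that were higher and in *Rpl3l*, which was lower, against 11.5% and 2.54% of all genes. *Rplp1* and *Rplp2*, proteins of the stalk that recruits elongation factors, differed by −0.04 ± 0.09 and 0.04 ± 0.07 with overlap, and *Rplp0*, the base of the stalk, by 0.14 ± 0.07 (adjusted p = 0.24).

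**Figure D4:**
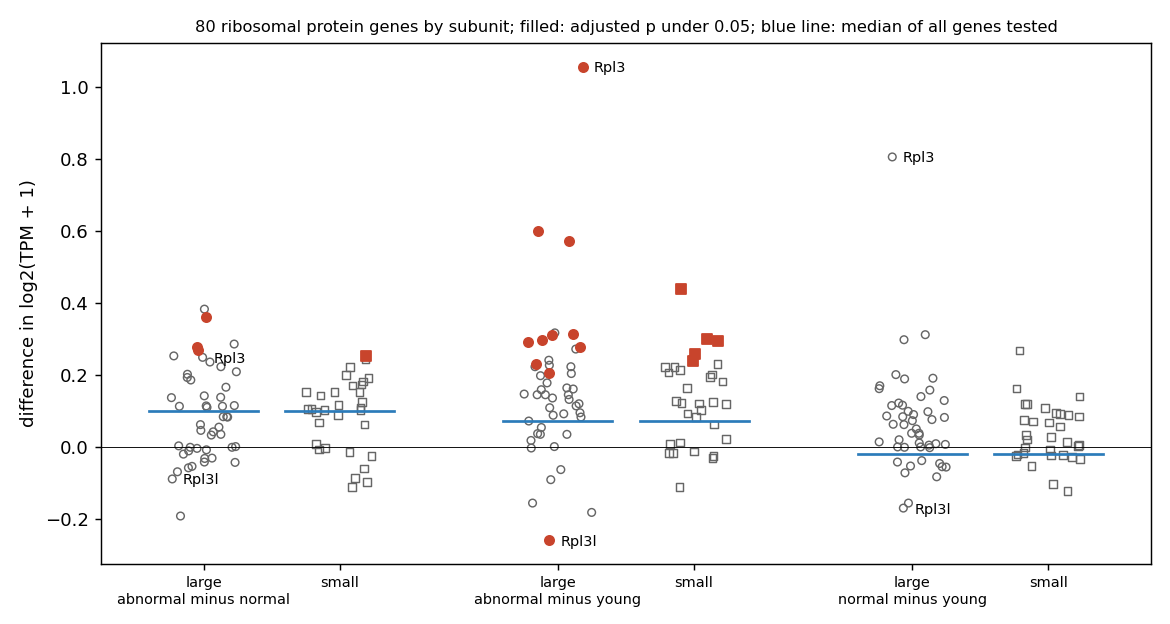
Each symbol is 1 of the 80 tested members, circles for the large and squares for the small subunit, at its difference in log2(TPM + 1) in each comparison; filled red symbols have an adjusted p under 0.05, and the blue line is the median over all 14427 genes. Most members lie within 0.3 of the blue line, and Rpl3 (1.06) and Rpl3l (−0.26) stand at the ends in abnormal minus young.

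Between Fluo-4 abnormal and young fibers, 15 of the 80 members rose and 1, *Rpl3l*, fell. The background was 6.09% of genes called higher and 2.41% lower, 8.5% in all. The median of the members was 0.141 against 0.074 for all genes and 0.036 for the 870 genes with a mean of at least 100 TPM. Of these 870 genes, 14.7% were called higher and 13.6% lower, and of the 61 members among them 11 were called higher and 1 lower. Groups did not overlap in 28 members that were higher and 1 that was lower, against 12.2% and 3.95% of all genes. Of the 15, 10 belonged to the large subunit and 5 to the small subunit. The count fell to 2, *Rpl3* and *Rpl12*, with TMM-type factors, which moved the median of the members to −0.033 and that of all genes to 0.001. It was 8 when the samples were rescaled without the mitochondrially-encoded genes and 8 when all annotated genes were tested. Of the 15, 7 were among the 38 members whose copies held at most 10% of the joint TPM. Leaving out young replicates 1 to 4 gave 5, 4, 4 and 2, and leaving out abnormal replicates 2 to 4 gave 8, 4 and 2.

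*Rpl12*, part of the base of the stalk, was at 17.5, 16.6, 14.6 and 16.1 TPM in young, 21.0, 18.9, 18.7 and 22.9 TPM in normal and 23.4, 27.5, 22.0 and 27.6 TPM in abnormal samples. All aged samples exceeded all young samples. The difference between abnormal and young was 0.60 ± 0.10 (adjusted p = 0.0035), and 0.49 ± 0.07 (adjusted p = 0.0014) with its copies added, and the call held in all 26 alternatives. *Rpl10*, which joins the large subunit last and is placed near the peptidyl transferase center, was at 125, 149, 147 and 129 TPM in young and at 162, 184, 229 and 257 TPM in abnormal samples (0.57 ± 0.13, adjusted p = 0.018). Abnormal replicates 3 and 4 were the highest of the 12 samples. Its copies held 61.5% of the joint TPM.

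Of the others, *Rpl7a* rose by 0.31 ± 0.07 (adjusted p = 0.018), from 49.7 ± 0.97 to 62.2 ± 6.18 TPM (SD, n = 4). Its copies held 49.3% of the joint TPM, and the call was lost with the named pseudogenes added but held with its near-identical pseudogene copies added. *Rps12*, whose copies held 63.3% of the joint TPM, rose by 0.44 ± 0.12 (adjusted p = 0.041), from 24.1 ± 2.54 to 33.1 ± 4.72 TPM. The call of *Rps12* was lost with its near-identical pseudogene copies added. *Rps25*, a protein near the exit site of the small subunit used by some viral and cellular internal ribosome entry sites, rose from 515 ± 17.6 to 616 ± 15.9 TPM (0.26 ± 0.07, adjusted p = 0.032). *Rps19*, the gene most often mutated in Diamond-Blackfan anemia, rose from 167 ± 12.9 to 206 ± 6.86 TPM (0.30 ± 0.08, adjusted p = 0.042). *Rps4x* rose from 95.6 ± 4.25 to 118 ± 10.5 TPM and *Rps21* from 122 ± 7.16 to 144 ± 4.64 TPM, both with an adjusted p of 0.029 to 0.040. The remaining calls were *Rpl4*, *Rpl8*, *Rpl13*, *Rpl13a*, *Rpl19* and *Rpl23*, with differences of 0.21 to 0.31. Among those without overlap but short of the threshold were *Rpsa* (0.23 ± 0.07, adjusted p = 0.060) and *Rps18* (0.18 ± 0.07, adjusted p = 0.15). Apart from *Rpl3*, *Rpl3l* and *Rpl12*, each of these calls was lost with TMM-type factors.

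Between Fluo-4 normal and young fibers, no member was called in either direction, against 0.561% of genes higher and 0.589% lower, 1.15% in all. At an unadjusted p under 0.05, 6 members were higher and 1, *Rpl3l*, lower, against 5.04% and 7.89% of all genes. The median of the members was 0.039 and that of all genes −0.018. Groups did not overlap in 3 members that were higher, *Rpl12*, *Rpl23* and *Rpl32*, and in *Rpl3l*, which was lower, against 3.03% and 4.96% of all genes. *Rpl23* was at 91.2, 84.5, 86.3 and 96.2 TPM in young, 130, 108, 101 and 104 TPM in normal and 109, 108, 101 and 124 TPM in abnormal samples, so that both aged groups lay above the young samples. Its difference was 0.30 ± 0.09 in both comparisons with young (adjusted p = 0.0499 for abnormal, 0.12 for normal). The differences of *Rpl31* (0.16 ± 0.07), *Rps18* (0.12 ± 0.07) and *Rps10* (−0.12 ± 0.06) did not pass. The 2 comparisons with young fibers share their young samples.

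**Figure D5:**
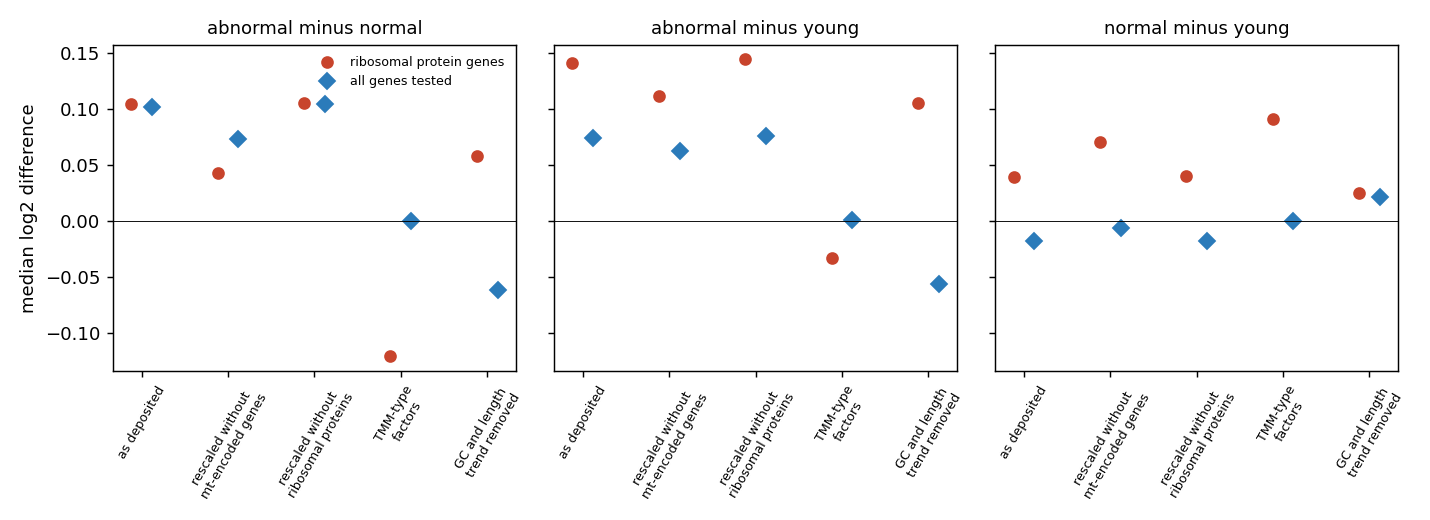
Circles are the median log2 difference over the 80 tested ribosomal protein genes and diamonds that over all genes tested, for 5 ways of scaling the samples, 1 panel per comparison. In abnormal minus normal the circle moves from 0.104 to −0.121 with TMM-type factors while the diamond moves from 0.102 to 0. With the GC and length trend removed, the diamond is at −0.062 and the circle lies 0.12 above it.

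Genes that build and feed the ribosome were described from 7 lists, which held 180 distinct genes that were tested. Between abnormal and normal fibers, 25 of these rose and none fell by limma, with 1 gene lower at an unadjusted p under 0.05, but 5 rose with TMM-type factors and 50 with the replicate block. All 14427 genes had 7.36% called higher and a median of 0.102, and the 5994 genes with a mean of at least 5 TPM had 14.1% called higher and a median of 0.198, so the counts and medians of the lists are given as descriptions beside these values. Without abnormal replicates 2, 3 or 4 the count was 8, 10 and 13. Of the 8 tested ribosomal proteins that the naming rule left out, *Rpl36al* rose from 578 ± 51.9 to 704 ± 63.5 TPM (0.28 ± 0.08, adjusted p = 0.045) and the median was 0.086. *Rps3a1* differed by 0.17 ± 0.07 and did not pass. Against young fibers, *Rpl36al*, *Fau* and *Rack1* rose.

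Of 37 initiation genes, 10 rose between abnormal and normal fibers and the median was 0.208. Beside this, 7.36% of all genes and 14.1% of those of at least 5 TPM (median 0.198) were called higher. *Pabpc1*, which binds the poly(A) tail, rose from 6.57 ± 1.11 to 11.7 ± 0.75 TPM (0.76 ± 0.14, adjusted p = 0.0065). The subunits *Eif3a* (0.68 ± 0.13, adjusted p = 0.0074) and *Eif3c* (0.35 ± 0.07, adjusted p = 0.013) of the factor that recruits the small subunit rose too. Of 10 elongation genes, 2 rose (median 0.188), *Eef2k*, the kinase that inhibits elongation factor 2 (0.53 ± 0.12, adjusted p = 0.014), and *Eif5a* (0.26 ± 0.07, adjusted p = 0.025). *Eef1a2*, the muscle form of elongation factor 1A, was at 24.5 ± 2.63 and 30.3 ± 2.50 TPM (adjusted p = 0.071). Of 16 genes with 5′ TOP mRNAs that were not members, 3 rose (median 0.229), namely *Pabpc1*, *Eif4b* (0.46 ± 0.12, adjusted p = 0.030) and *Eif3e* (0.29 ± 0.08, adjusted p = 0.047).

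Of 88 genes of ribosome biogenesis, 7 rose (median 0.196), beside 7.36% of all genes and 14.1% of those of at least 5 TPM (median 0.198). *Nop56*, a core protein of box C/D small nucleolar particles, rose from 32.5 ± 3.02 to 45.5 ± 2.52 TPM (0.48 ± 0.09, adjusted p = 0.0056), with young samples at 33.7 ± 3.12 TPM. *Ftsj3* (0.46 ± 0.09, adjusted p = 0.0091) and *Tsr1* (0.55 ± 0.12, adjusted p = 0.013) also rose. Of 12 genes of RNA polymerase I, 2 rose (median 0.280), *Taf1a* (0.67 ± 0.17, adjusted p = 0.024) and *Polr1d* (0.20 ± 0.06, adjusted p = 0.0499), whereas *Rrn3* differed by 0.36 ± 0.12 (adjusted p = 0.085). The difference of *Polr1d* turned to −0.02 with TMM-type factors. Of 20 genes of mTORC1 signaling and ribosomal protein control, 3 rose (median 0.391). These were *Deptor*, an inhibitor of mTOR (0.89 ± 0.22, adjusted p = 0.023), *Eif4ebp2*, a repressor of cap-dependent initiation (0.80 ± 0.18, adjusted p = 0.016), and *Rragd*, a Rag GTPase that brings mTORC1 to lysosomes (0.58 ± 0.13, adjusted p = 0.016). With TMM-type factors the medians of the 7 lists lay between −0.140 and 0.183.

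Against young fibers, 18 of the 180 list genes rose and 1 fell in the abnormal fibers, or 10.0% and 0.556%, beside 6.09% and 2.41% of all genes and 10.2% and 4.54% of the genes of at least 5 TPM. Among them, 7 initiation genes, 7 biogenesis genes and the 5′ TOP genes *Eif3e* and *Rack1* rose. No elongation or polymerase I gene was called by limma, with 4 and 2 of them higher at an unadjusted p under 0.05. *Emg1*, a methyltransferase of the small subunit rRNA, fell from 88.3 ± 2.88 to 65.8 ± 5.77 TPM, by 0.42 ± 0.08 on the log2 scale (adjusted p = 0.0065), and *Myc*, a transcription factor that drives ribosome synthesis, rose from 3.90 ± 1.65 to 9.01 ± 1.77 TPM (1.07 ± 0.28, adjusted p = 0.034). Between normal and young fibers, limma called no gene of the 7 lists, whereas at an unadjusted p under 0.05, 2 biogenesis genes were higher and 8 lower, and 5 initiation and 3 polymerase I genes were lower.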

How the data were processed

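RNA-seq of EDL fibers was used, in 3 groups of 4 samples. The authors made libraries from 10 ng of RNA with SMART-Seq v4, which keeps no strand, aligned reads to GRCm39 with DRAGEN (version 4.3, per the paper) and deposited TPM per gene symbol; reads and annotation release are not given in the sources used here. The 114 symbols on several lines were summed. Symbols were matched to GENCODE vM39 (49848 directly, 113 by synonym, 2521 by RefSeq only, 2885 not matched).

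Protein-coding and mitochondrially-encoded genes with a group mean of at least 0.02 TPM in 1 group were tested with limma 3.58.1 in R 4.3.3 on log2(TPM + 1), with a variance trend on mean expression. A fold change on this scale understates that of low genes. Nothing says that samples of a group came from separate mice, so p-values measure the spread between these samples. Copies were searched with BLAST 2.17.0, and promoters were those of RefSeq, GRCm38.p6. The 34 members named were taken by rule: *Rpl3*, *Rpl3l*, paralogs ending in l, *Rplp0*, *Rplp1*, *Rplp2* and *Rpsa*, the 5 large and 5 small subunit members with the smallest p per comparison, the 3 highest and 3 lowest, and up to 3 genes per list. Some of these are not reported here. Other members, the motifs and the sequences shown were chosen after values were seen. The members and lists were chosen with earlier results of these data known.

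Each result was recomputed with TMM-type factors, whose trims were 30% and 5%, and with rescaling without the mitochondrially-encoded genes or the members, no filter or 5 TPM, a pseudocount of 0.1, all annotated genes, only 2 groups, sample weights, named pseudogenes added, a GC and length trend removed (spline with 5 degrees of freedom, on 8933 genes, using the annotated main transcript), the replicate block and leaving out each sample. The addition of all near-identical non-coding copies, the count among members with few copies and the medians and shares of genes of at least 5 or 100 TPM were chosen after seeing the data. The labels number the aged replicates alike. Departures from the group means in 4468 genes had correlations of 0.51, 0.42, 0.46 and 0.33 between abnormal and normal samples of one number, and of −0.43 to 0.28 between other pairs. These samples were therefore paired in the block. On simulated data with 14427 genes, the fit of abnormal against normal recovered 48% of genes raised by 0.5 on the log2 scale, 88% of those raised by 1, 100% of those raised by 2 and 82% of those lowered by 1. Figures were made with Python 3.11.15 and matplotlib 3.10.9.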

Additional observations from a re-analysis of the deposited data

Results flagged for a closer look

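In 2 of the 90 sets of 4 values checked, 1 sample lay far from the other 3 of its group by Dixon's test, which chance gives in about 1 of 20 sets. *Rplp2* was at 701.6 TPM in Fluo-4 normal replicate 1, against 576 to 589 TPM in the other normal samples. *Rps18* was at 412 TPM in Fluo-4 abnormal replicate 4, against 345 to 350.4 TPM.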

How the results depend on the processing

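Between abnormal and normal fibers, 4 members were called higher. The count was 0 with TMM-type factors and with only the 2 groups compared, 1 after rescaling without the mitochondrially-encoded genes and with all annotated genes, 7 with sample quality weights, 8 with no filter and 11 with a filter of 5 TPM. It was 13 with the replicate block, and 12 with the replicate block and the GC and length correction together. *Rpl3l* was the 1 member called lower with TMM-type factors, with the GC and length correction, and with that correction and the block. Leaving out each sample gave 0 to 11 higher. Between abnormal and young fibers, 15 members were called higher, and 2 with TMM-type factors, 8 after rescaling without the mitochondrially-encoded genes, 8 with all annotated genes, 7 among members with few copies and 2 to 21 with each sample left out. *Rpl3l* was called lower in every alternative run. Between normal and young fibers, 1 member, *Rpl23*, was called higher with the replicate block and the GC and length correction, and 0 in the other alternatives. In the translation lists, 25 genes were higher between abnormal and normal fibers, and 5 with TMM-type factors, 6 with only the 2 groups, 7 with the GC and length correction, 16 after rescaling without the mitochondrially-encoded genes, 43 with a filter of 5 TPM, 50 with the replicate block and 8 to 30 with each sample left out. With the block and the GC and length correction 1, *Tbl3*, was called lower. The difference of *Polr1d* turned to −0.02 with TMM-type factors. The ratio of *Rpl3l* to *Rpl3* and the summed TPM of the members moved by less than the spread between samples in the alternatives run for them. For these, the alternatives were compared by value, with no test. Rescaled without the mitochondrially-encoded genes, the sums averaged 19760, 20779 and 21057 TPM in young, normal and abnormal fibers. With each sample left out, the difference of mean sums was 718 to 1686 TPM for abnormal minus normal. It was 1257 to 1965 TPM for abnormal minus young and −74.9 to 883 TPM for normal minus young, so the last changed sign. Where an alternative tests fewer or more genes or samples, this by itself changes the adjusted p; otherwise the cause was not tested. Young and aged samples share only replicate numbers, whose deviations correlated at −0.12 to 0.24, and the block changed the count of members called higher between abnormal and young fibers from 15 to 20. Without read counts, the precision of low members such as *Rpl3* is unknown.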
